A study of Mus musculus with 20 samples.

Results

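The genes described here are those of hepatic glucose and glycogen metabolism and of insulin and glucagon signalling. A list of 36 genes was taken by symbol from the deposited count table of mouse liver, and 26 of them had an intact line in it. Of 35504 genes in all, 23993 were intact in this sense. The remaining 10 listed genes stood on lines whose cells had moved out of place and were not analysed: G6pc3, Pfkl, Pfkfb1, Pfkfb3, Gbe1, Pdk1, Pdk2, Ppp1r3b, Ppp1r3c and Ppp1r3g. All 26 genes with an intact line passed the filter on low counts, so none dropped out for low expression.

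RNA was sequenced from the livers of 20 individual female mice, 5 in each of 4 groups. Mice ate either a diet with oral combined contraceptives (OC), the oestrogen and progestin pairs taken as the pill, or the vehicle diet, and either had a running wheel for voluntary wheel running (VWR) or stayed sedentary. The groups are vehicle sedentary (Con.Sed), vehicle running (Con.VWR), OC sedentary (OC.Sed) and OC running (OC.VWR). The labels used here give no strain, age, agent, dose, duration or feeding state, so the time since the last meal, on which many of these genes depend, is not known.

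The liver stores glucose as glycogen after a meal and releases glucose between meals, by breaking glycogen down and by making glucose from pyruvate and lactate. Insulin binds its receptor on hepatocytes, and the docking proteins Irs1 and Irs2 pass the signal to the Akt kinases, which favour glycogen storage and hold the Foxo transcription factors out of the nucleus. Glucagon acts through its own receptor and cyclic AMP in the opposite direction, and the coactivator Crtc2 is one of its relays to the gluconeogenic genes.

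Library totals ran from 10883936 to 16134618 counts. The first principal component of all genes (39.2% of the variance) separated every OC library from every vehicle library, and Con.Sed replicate 2 stood apart on the second. It had the lowest level of Pklr, Khk, Gckr, Insr and Foxo3 of the 5 Con.Sed libraries and the highest level of Ldha and Pgm2. Of all 20 libraries it had the highest summed markers of adipocytes (36.9 CPM), stellate cells and fibroblasts (943 CPM). The same held for Kupffer cells and macrophages (867 CPM) and for lymphocytes and neutrophils (19.0 CPM). Its summed level of circadian clock genes was the lowest (655 CPM). The hepatocyte markers were abundant in every library, and their summed level was lower on OC, from 103995 to 128950 CPM in OC.Sed and 91965 to 129303 CPM in OC.VWR against 151452 to 210035 CPM over both vehicle groups. Most of this sum was albumin, which held 6.29% to 9.32% of counts on OC and 10.96% to 14.2% on vehicle. The 12 hepatocyte markers tested went both ways on OC, with 2 called higher and 3 lower in sedentary mice and 1 higher and 2 lower in running mice. The summed level of 9 stellate cell and fibroblast markers ran from 397 to 672 CPM on OC and from 593 to 943 CPM on vehicle. On OC 8 of the 9 were called lower in sedentary mice and 4 of the 9 in running mice. All 9 had negative log2 differences in running mice, from -0.91 to -0.16. What part these shifts have in the values below was not tested. In whole liver, fewer cells of a type and less RNA per cell cannot be told apart. Levels are in CPM, a gene's share of its library's counts, after scaling by the trimmed mean of M values (TMM). A gene is called at a Benjamini-Hochberg adjusted p under 0.05 over 10207 tested genes in edgeR's quasi-likelihood test.

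Levels compared between genes are given as CPM per kilobase of exon. On that scale Fbp1, the gluconeogenic enzyme fructose-1,6-bisphosphatase, had the highest level of the 26 genes, with a mean of 785 over the 20 livers. Khk, the ketohexokinase that starts fructose breakdown, followed at 418, then the glycolytic enzymes Gapdh at 232 and Ldha at 212. The insulin receptor Insr stood at 13.4, Irs2 at 7.66 and Irs1 at 4.61 on the same scale. The lowest were Gyg, the glycogenin that primes new glycogen, at 3.04 and Pgm2 at 2.94. Gapdh, Ldha, Pgk1, Tpi1 and Pgam1 have processed pseudogenes with near-identical sequence in the mouse genome, and how the counting treated reads shared with them is not given, so their levels are less certain. Of the genes called below, Pcx, Insr, Irs1 and Irs2 each overlap a gene annotated on the opposite strand (Lrfn4, Gm16180, Gm9747 and 9530052E02Rik). The libraries were stranded, but the strand setting of the counting is not given in the sources used here.

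**Figure D1:**
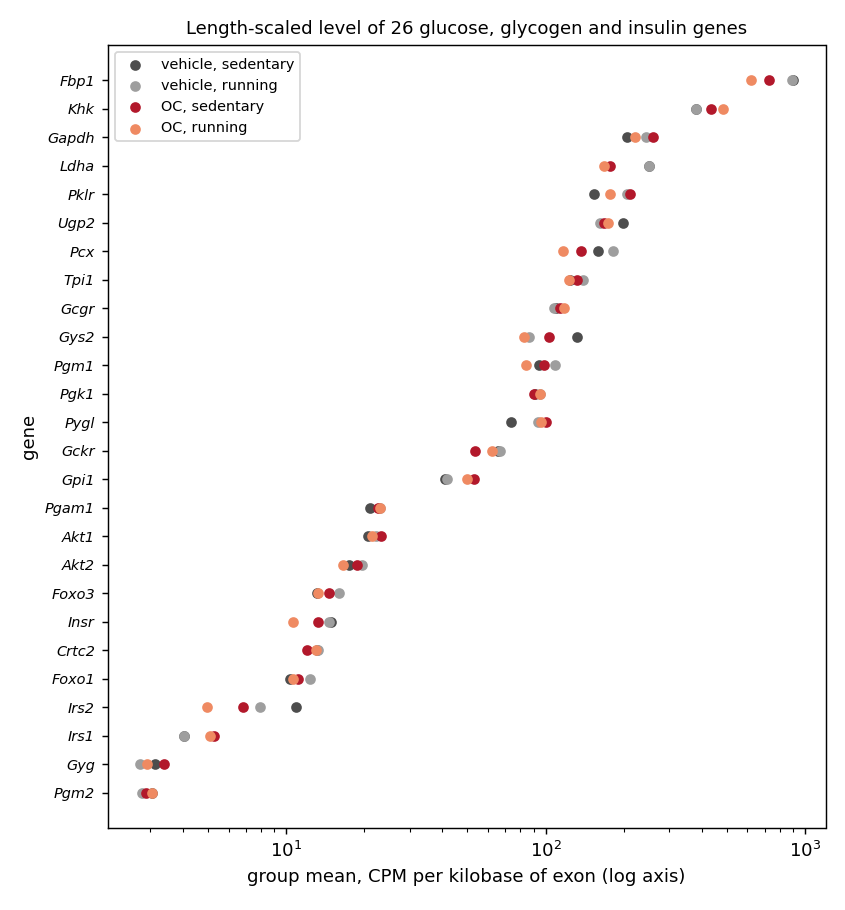
Mean level of each of the 26 genes in the 4 groups, in CPM per kilobase of exon on a log axis, 1 point per group (5 mice each). The genes run from Fbp1 at a mean of 785 down to Pgm2 at 2.94, and the 4 groups lie close together compared with that range.

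The genes also differed in their spread between mice of one group. The mean coefficient of variation within groups was lowest for the kinases Akt1 (7.67%) and Akt2 (7.94%), and highest for Irs2 (34.6%) and for Pklr (31.6%), the liver pyruvate kinase that ends glycolysis. A difference of a given size was therefore less easily detected for Irs2 and Pklr than for the Akt genes.

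Of the 26 genes, 6 were called in at least 1 comparison of diet: Pcx, Fbp1, Ldha, Insr, Irs1 and Irs2. For running, and for the interaction of diet and running, edgeR called none. For 4 of these 6 genes, 1 promoter window each is shown here because it holds the letters CACGTG. This is the E-box that basic helix-loop-helix factors such as Srebf1, Mlxipl and the clock proteins can bind. The sequences are from RefSeq (GRCm38.p6) and hold the 250 bases before the annotated start, 5′ to 3′ on the gene's strand. Capitals mark CACGTG and, in Ldha, the cyclic AMP response element TGACGTCA. The windows are Pcx at chr19:4510222-4510471 (plus strand), Ldha at chr7:46845554-46845803 (plus), Irs1 at chr1:82291440-82291689 (minus) and Irs2 at chr8:11008930-11009179 (minus). Pcx and Ldha each have another RefSeq window, at chr19:4594069-4594318 and chr7:46846832-46847081, and neither of these holds CACGTG. Both Ldha windows and the other Pcx window lie inside the span annotated for their gene. Which start these livers use was not tested.
Pcx: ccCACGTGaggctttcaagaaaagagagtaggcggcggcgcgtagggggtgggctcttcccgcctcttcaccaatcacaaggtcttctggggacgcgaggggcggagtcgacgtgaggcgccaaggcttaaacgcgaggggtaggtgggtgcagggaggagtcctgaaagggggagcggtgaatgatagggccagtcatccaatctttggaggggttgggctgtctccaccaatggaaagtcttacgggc
Ldha: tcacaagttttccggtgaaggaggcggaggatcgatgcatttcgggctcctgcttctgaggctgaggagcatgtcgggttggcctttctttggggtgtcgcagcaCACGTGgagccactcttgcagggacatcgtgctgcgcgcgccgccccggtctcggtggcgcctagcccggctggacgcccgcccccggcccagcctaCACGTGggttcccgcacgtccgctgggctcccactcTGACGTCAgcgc
Irs1: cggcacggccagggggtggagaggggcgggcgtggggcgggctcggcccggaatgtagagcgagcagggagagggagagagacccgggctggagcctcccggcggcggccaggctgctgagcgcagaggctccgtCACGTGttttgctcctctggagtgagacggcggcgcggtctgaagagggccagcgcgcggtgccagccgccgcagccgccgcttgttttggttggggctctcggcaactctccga
Irs2: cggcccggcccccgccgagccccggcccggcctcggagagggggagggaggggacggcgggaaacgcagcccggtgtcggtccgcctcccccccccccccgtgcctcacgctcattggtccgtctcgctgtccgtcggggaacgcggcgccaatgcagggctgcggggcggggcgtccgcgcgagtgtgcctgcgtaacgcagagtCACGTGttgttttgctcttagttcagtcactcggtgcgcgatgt
The E-box begins 248 bases before the start in Pcx, 145 and 48 bases before it in Ldha, 115 in Irs1 and 44 in Irs2. In Irs1 and Irs2 it lies within the longest run that both windows share, GTCACGTGTT, of 10 bases. The response element of Ldha begins 12 bases before the start.

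Over all RefSeq windows for these genes, 23 of the 26 symbols matched, with 31 windows in all. CACGTG, a palindrome that reads the same on both strands, was in 5 of the 31 windows, 1 each of Pcx, Ldha, Irs1, Irs2 and Khk, and in 6.02% of 32851 windows of the genome's genes. TGACGTCA was in 1 member window (1.55% of all windows). The forkhead motif GTAAACA, searched on both strands, was found once, in Akt1 (3.17% of all windows), and TTCNNNGAA, the STAT motif, once, in Akt2 (7.02%). The estrogen response element GGTCANNNTGACC and the progesterone or glucocorticoid response element GNACANNNTGTNC were in none of the 31 windows, and in 0.0639% and 0.387% of all windows. These matches describe letters in a window and not binding, and an absent match says only that the letters are not there. Insr had no entry in the sequence table, and the window of Fbp1 held none of these motifs.

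Gluconeogenesis from pyruvate and lactate begins with Pcx, the mitochondrial pyruvate carboxylase that makes oxaloacetate (chromosome 19, 4510472 to 4621752, plus strand, GRCm38). Its level on vehicle was 837, 613, 796, 866 and 668 CPM in the 5 sedentary mice and 969.8, 679, 982, 812 and 888 CPM in the 5 running mice. On OC it was 707, 551, 731, 644 and 624 CPM in sedentary mice and 425, 696, 499, 630.4 and 533 CPM in running mice. In running mice, 4 of the 5 OC libraries lay below all 5 vehicle libraries, and the OC library at 696 CPM lay above 1 of them. Pcx was 1.56-fold lower on OC in running mice (log2 difference -0.64, SE 0.14, adjusted p 0.00378). In sedentary mice the log2 difference was -0.22 (SE 0.14, adjusted p 0.299), and the groups overlapped.

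Fbp1, which removes a phosphate in a late and regulated step of glucose synthesis, lies on chromosome 13 (62864753 to 62888282, minus strand). Vehicle libraries held 1362, 1546, 1748, 1215 and 1772 CPM in sedentary mice and 1510.2, 1422, 1649, 1638 and 1361 CPM in running mice. OC libraries held 1393, 1164, 1154, 1199.6 and 1290.4 CPM in sedentary mice and 962, 982, 1073, 1303 and 966 CPM in running mice. Every OC running library was below every vehicle running library, while the sedentary groups overlapped. Fbp1 was 1.43-fold lower on OC in running mice (log2 difference -0.52, SE 0.11, adjusted p 0.00464). In sedentary mice its log2 difference was -0.30 (SE 0.11, adjusted p 0.0765) and missed the threshold, although DESeq2 called it there (adjusted p 0.0351). Pcx and Fbp1 remained called in running mice and in the average over activity under every alternative run, except that a minimum fold of 1.5 left Pcx alone in running mice and neither on average.

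**Figure D2:**
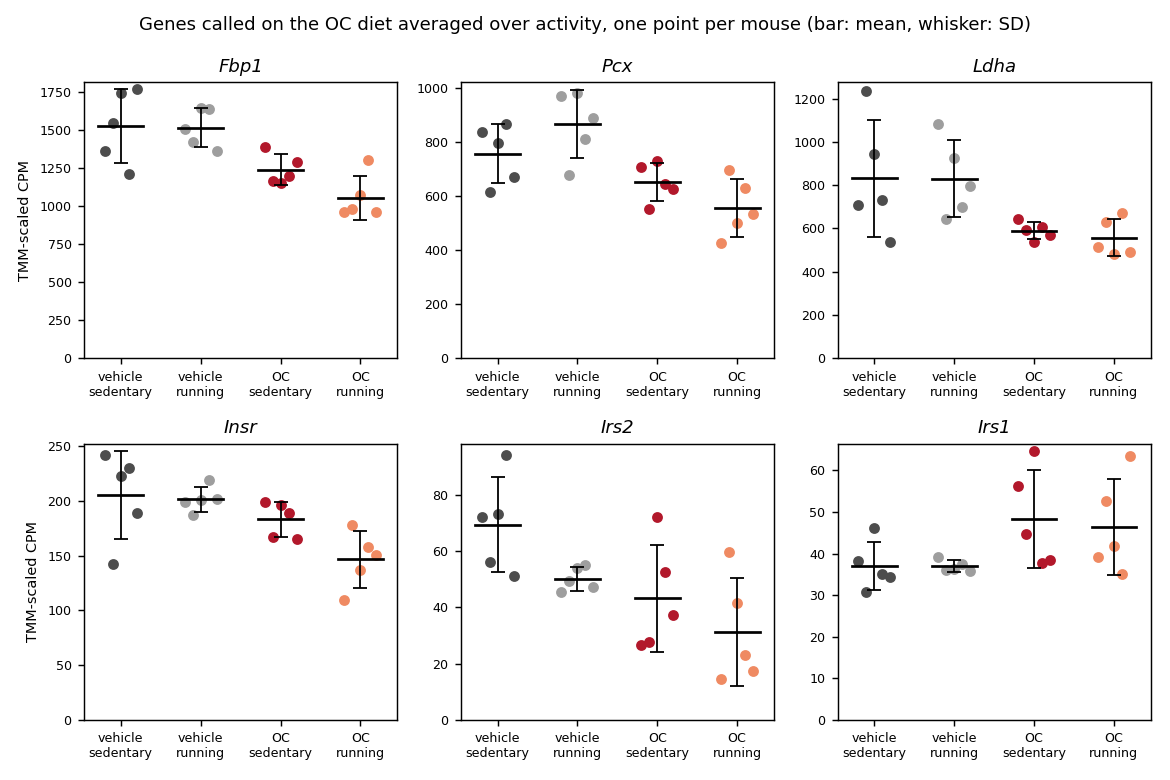
Level of each of the 6 genes called on OC averaged over activity, in CPM, 1 point per mouse in each group, with a bar at the group mean and a whisker of 1 SD. All 5 OC running libraries of Fbp1 and Insr lie below all 5 vehicle running libraries, whereas Irs1 and Irs2 overlap between diets.

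Among 9 tested genes of glycolysis and fructose breakdown, 1 (11.1%) was called on OC in running mice and averaged over activity. Of all tested genes 13.2% and 22.9% were called there. In sedentary mice none of the 9 was called, beside 16.3% of all tested genes. Ldha, the lactate dehydrogenase subunit that interconverts pyruvate and lactate (chromosome 7, 46841475 to 46855627, plus strand), stood at 709, 1236, 943, 731 and 536 CPM in vehicle sedentary mice and 1082, 643, 925, 699 and 795 CPM in vehicle running mice. On OC the values were 641, 592, 535, 607 and 569 CPM in sedentary mice and 514, 628, 482, 669 and 494 CPM in running mice. The OC libraries were close together in both activity groups and the vehicle libraries spread widely, with 1 vehicle library in each activity group inside or below the range of OC. In running mice Ldha was 1.49-fold lower on OC (log2 difference -0.57, SE 0.18, adjusted p 0.0368). That call was lost without any of Con.VWR replicates 1, 3 and 5 or OC.VWR replicates 1, 3 and 5, at adjusted p up to 0.109. In sedentary mice the difference was of like size (log2 difference -0.50, SE 0.18) with an adjusted p of 0.0596, and DESeq2 called it (adjusted p 0.0321).

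The other 8 glycolysis and fructose genes passed the test in no comparison of diet. Gapdh, which oxidises glyceraldehyde 3-phosphate, averaged 848 ± 117 CPM in Con.Sed and 1072 ± 116 CPM in OC.Sed (SD, n = 5), but 1006 ± 187 CPM in Con.VWR and 913 ± 49.6 CPM in OC.VWR. Its log2 difference on OC was 0.34 in sedentary mice (SE 0.12, adjusted p 0.0625) and -0.14 in running mice (SE 0.12, adjusted p 0.477). DESeq2 called the sedentary difference (adjusted p 0.0424). Pklr ran from 192 to 875 CPM within Con.Sed alone, and its log2 difference of 0.46 there had an SE of 0.29. Khk averaged 682 ± 243, 680.2 ± 133, 779 ± 133 and 865 ± 175 CPM in Con.Sed, Con.VWR, OC.Sed and OC.VWR (SD, n = 5). Gckr, the regulatory protein that holds glucokinase in the nucleus, averaged 284 ± 65.5 CPM in Con.Sed and 232 ± 31.2 CPM in OC.Sed (SD, n = 5), and was called lower there without Con.Sed replicate 2 (adjusted p 0.0227). Gpi1, the isomerase that links glucose 6-phosphate to fructose 6-phosphate, had log2 differences of 0.37 (SE 0.17) and 0.26 (SE 0.17) in sedentary and running mice. The 3 remaining enzymes of the pathway's lower part had group means within narrow ranges, Pgk1 at 203 to 214 CPM, Tpi1 at 340.1 to 382 CPM and Pgam1 at 41.6 to 45.6 CPM.

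None of the 6 glycogen genes was called in any comparison. Of all tested genes 16.3%, 13.2% and 22.9% were called on OC in sedentary mice, in running mice and on average. For running and for the interaction the share of all tested genes was 0%. Gys2, the liver glycogen synthase (chromosome 6, 142422613 to 142473109, minus strand), is given in full because its p for running was the smallest of the 26 genes on vehicle and averaged over diet (on OC that of Insr was smaller), a choice made after its values were seen. Its level was 439, 356.7, 259.74, 352 and 342 CPM in vehicle sedentary mice and 259.67, 234, 185, 223 and 242 CPM in vehicle running mice. On OC it was 287, 278, 257, 318 and 232 CPM in sedentary mice and 185, 230.1, 279, 228 and 175 CPM in running mice. On vehicle all 5 running libraries lay below all 5 sedentary ones, the closest pair almost level, and 0.921% of tested genes were separated downward in this way and 1.09% upward. The log2 difference of running on vehicle was -0.61 (SE 0.14) with an unadjusted p of 0.00024 and an adjusted p of 0.205, so edgeR did not call it, and limma voom did not either (adjusted p 0.258). DESeq2 called it (adjusted p 0.0225). On OC the log2 difference of running was -0.32 (SE 0.14, adjusted p 0.683), and averaged over diet it was -0.47 (SE 0.10, adjusted p 0.526, and 0.0341 by DESeq2).

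Pygl, the liver glycogen phosphorylase that releases glucose units, averaged 508 ± 135 CPM in Con.Sed, 643 ± 164 CPM in Con.VWR, 694 ± 104 CPM in OC.Sed and 664 ± 45.6 CPM in OC.VWR (SD, n = 5). Its log2 difference on OC in sedentary mice was 0.45 (SE 0.17, adjusted p 0.0817), and it was called without Con.Sed replicate 3 (adjusted p 0.0282). Pgm1, the phosphoglucomutase between glucose 1-phosphate and glucose 6-phosphate, averaged 317 ± 32.4 CPM in Con.VWR and 245 ± 47.8 CPM in OC.VWR (SD, n = 5; log2 difference -0.37, SE 0.13, adjusted p 0.0707). DESeq2 called it lower (adjusted p 0.0433). Ugp2, which makes the UDP-glucose that glycogen synthase uses, averaged 611 ± 138 CPM in Con.Sed against 499 to 535 CPM in the other groups. Gyg and Pgm2 stayed between 5.05 and 13.0 CPM in every library.

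Of 9 genes of insulin and glucagon signalling, 3 were called on OC averaged over activity and 1 of these also within running mice, beside 22.9% and 13.2% of all tested genes. Insr, the insulin receptor (chromosome 8, 3122061 to 3279617, minus strand), had levels of 242, 143, 223, 229.7 and 189 CPM in vehicle sedentary mice and 199, 187, 201, 219 and 202 CPM in vehicle running mice. On OC they were 199, 167, 196, 189 and 165 CPM in sedentary mice and 109, 178, 137, 158 and 151 CPM in running mice. The running groups did not overlap, and the sedentary groups did. Insr was 1.37-fold lower on OC in running mice (log2 difference -0.46, SE 0.13, adjusted p 0.0240). This call was lost without Con.VWR replicate 4 or without OC.VWR replicate 1 or 3, at adjusted p up to 0.0762. In sedentary mice the log2 difference was -0.16 (SE 0.13, adjusted p 0.413).

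The substrates of the receptor went in opposite directions on OC. Irs1 (chromosome 1, 82233101 to 82291416, minus strand) stood at 38.1, 30.9, 46.3, 35.1 and 34.4 CPM in vehicle sedentary mice and 39.1, 36.0, 36.2, 37.6 and 35.9 CPM in vehicle running mice. OC libraries held 56.2, 44.7, 64.7, 37.8 and 38.4 CPM in sedentary mice and 39.1, 52.7, 41.8, 35.0 and 63.5 CPM in running mice. In 4 of 10 OC libraries Irs1 exceeded every vehicle library, and the rest overlapped with vehicle. Averaged over activity Irs1 was 1.28-fold higher on OC (log2 difference 0.36, SE 0.11, adjusted p 0.0250). The call was lost without OC.Sed replicate 1 or 3 or OC.VWR replicate 5, at adjusted p up to 0.0689, and without both Con.Sed replicates 2 and 5 (0.0800).

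Irs2, the substrate whose transcript insulin represses in liver (chromosome 8, 10984681 to 11008458, minus strand), was at 72.1, 56.0, 73.1, 94.1 and 51.2 CPM in vehicle sedentary mice and 45.3, 49.4, 53.9, 55.2 and 47.1 CPM in vehicle running mice. On OC it was at 26.5, 27.6, 72.0, 52.5 and 37.2 CPM in sedentary mice and 14.6, 59.5, 41.7, 22.9 and 17.3 CPM in running mice. In 7 of the 10 OC livers Irs2 was below every vehicle liver, and in the other 3 it lay within the vehicle range. Averaged over activity Irs2 was 1.61-fold lower on OC (log2 difference -0.69, SE 0.22, adjusted p 0.0297). The difference was -0.69 in sedentary and -0.69 in running mice, with adjusted p of 0.140 and 0.159, each with an SE of 0.31 to 0.32. The averaged call was lost without any 1 of Con.Sed replicate 4, OC.Sed replicates 1, 2 and 5, and OC.VWR replicates 1, 4 and 5, at adjusted p up to 0.0577.

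The log2 ratio of Irs1 to Irs2 counts within a library does not depend on how libraries are scaled. It averaged -0.89 ± 0.33 in Con.Sed, -0.44 ± 0.15 in Con.VWR, 0.24 ± 0.64 in OC.Sed and 0.75 ± 0.89 in OC.VWR (SD, n = 5). In both activity groups every OC library was above every vehicle library, and the differences in means were 1.13 and 1.18. The two-sided exact permutation p was 0.00794 for each, the smallest that 5 against 5 libraries allows. After adjustment over 20 comparisons of 5 ratios it was 0.0635, so neither passed the threshold. None of the 20 passed, and the other 4 ratios were Pklr to Fbp1, Gys2 to Pygl, Insr to Gcgr and Akt1 to Akt2.

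**Figure D3:**
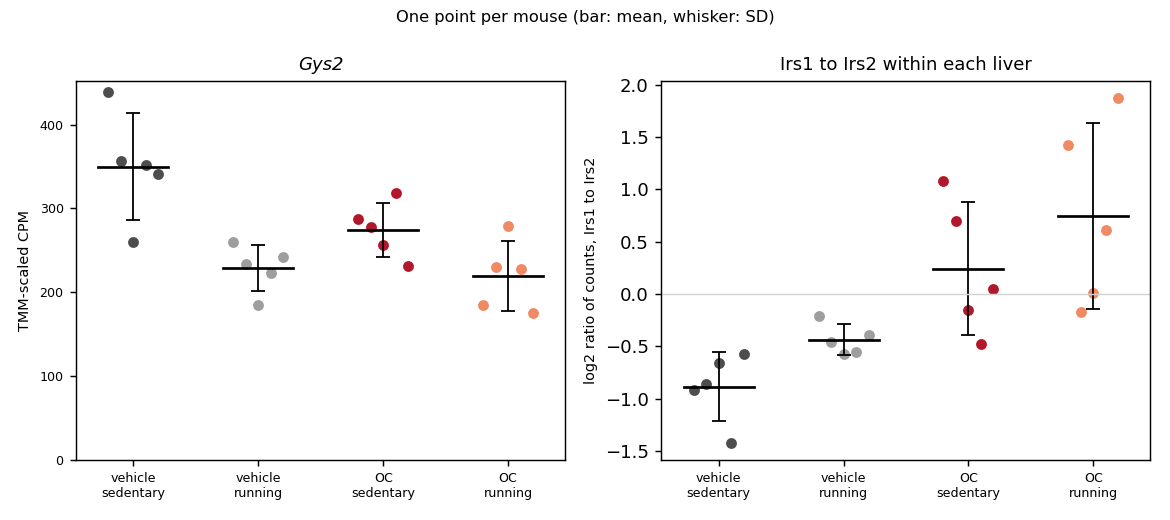
Level of Gys2 in CPM and log2 ratio of Irs1 to Irs2 counts, 1 point per mouse in the 4 groups, with a bar at the mean and a whisker of 1 SD. The Gys2 points of vehicle running mice lie at or below 259.67 CPM and those of vehicle sedentary mice at or above 259.74 CPM, and the ratio is higher in every OC library than in every vehicle library of the same activity.

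The remaining signalling genes were not called. Akt2, the main insulin-responsive Akt kinase of liver, averaged 140.2 ± 8.17 CPM in Con.VWR and 119 ± 9.44 CPM in OC.VWR (SD, n = 5) without overlap (log2 difference -0.24, SE 0.09, adjusted p 0.0646, and 0.0287 by DESeq2). Akt1 averaged 84.6 ± 4.82 CPM in Con.Sed and 95.2 ± 7.08 CPM in OC.Sed (SD, n = 5; log2 difference 0.17, SE 0.08, adjusted p 0.159). Foxo1, a main driver of gluconeogenic transcription, had log2 differences of 0.10 in sedentary and -0.21 in running mice (SE 0.16 each), and its relative Foxo3 had 0.15 and -0.27 (SE 0.16 each). Gcgr, the glucagon receptor, averaged between 284 and 308 CPM in all 4 groups. Crtc2 averaged 53.8 ± 6.27, 54.5 ± 5.62, 49.3 ± 10.4 and 53.5 ± 5.06 CPM in Con.Sed, Con.VWR, OC.Sed and OC.VWR (SD, n = 5).

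Counted together, 0 of the 26 genes were called for OC in sedentary mice by edgeR, where 16.3% of all tested genes were called (9.11% higher and 7.2% lower). None had groups that did not overlap, against 7.01% of tested genes separated upward and 4.01% downward. At an unadjusted p under 0.05 there were 9, against 30.7% of tested genes, with Fbp1, Ldha, Gys2 and Irs2 at the lower and Gapdh, Gpi1, Pygl, Irs1 and Akt1 at the higher side. DESeq2 called 3 and limma voom 0, beside 1886 and 1584 of all tested genes. Leaving out Con.Sed replicate 3 gave 4 calls (Gapdh, Gpi1 and Pygl higher, Gys2 lower), beside 1367 among all genes. Scaling by library totals alone, which put the median log2 difference of all genes at 0.10 instead of -0.01, gave 5 calls, all higher (Irs1, Gapdh, Gpi1, Pygl and Akt1). Of all tested genes that scaling called 1712 higher and 360 lower.

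In running mice 4 of 26 (15.4%) were called, all lower (Pcx, Fbp1, Insr and Ldha), against 13.2% of all tested genes in either direction, 7.09% higher and 6.06% lower. At an unadjusted p under 0.05 there were 7, against 28.2% of tested genes. Fbp1, Insr and Akt2 were the 3 genes whose OC libraries all lay below the vehicle libraries, while none was separated upward. Of all tested genes 4.95% were separated downward and 5.44% upward. With library totals alone, which put the median of all genes at 0.12 instead of 0.01, 2 lower calls were left (Fbp1 and Pcx). Of all tested genes that scaling called 1390 higher and 335 lower. Without OC.VWR replicate 1 or 3 there were also 2, beside 817 and 835 calls among all genes. Averaged over activity 6 of 26 (23.1%) were called, 1 higher and 5 lower, beside 22.9% of all tested genes, 11.9% higher and 11% lower. In total the share is near that of all genes, and the split by direction was not tested. Library totals alone gave 7 higher and 3 lower there, with the median of all genes at 0.11 instead of 0.00, and Insr and Irs2 lost their calls. Of all tested genes that scaling called 2559 higher and 599 lower. The median log2 difference of the 26 genes was 0.08 in sedentary, -0.08 in running mice and -0.05 on average, beside -0.01, 0.01 and 0.00 for all tested genes.

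The OC difference had the same sign in sedentary and running mice for 16 of the 26 genes, 9 lower and 7 higher. In 8 genes it was positive in sedentary and negative in running mice, and in 2 the reverse. Across the 26 genes the differences correlated with r of 0.579, which is a description, since genes of one liver share its library. The interaction, the test of whether the OC difference itself changed with running, called none of the 26 genes and none of all tested genes in edgeR. At an unadjusted p under 0.05 (17.7% of tested genes) it held 4, Akt2 (-0.34), Gapdh (-0.48), Pgm1 (-0.44) and Pcx (-0.42), with adjusted p from 0.212 to 0.270. DESeq2 and limma voom called 0 of the 26, beside 119 and 0 of all tested genes. A smaller response of Pcx, Insr or Fbp1 in sedentary mice is therefore not shown.

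**Figure D4:**
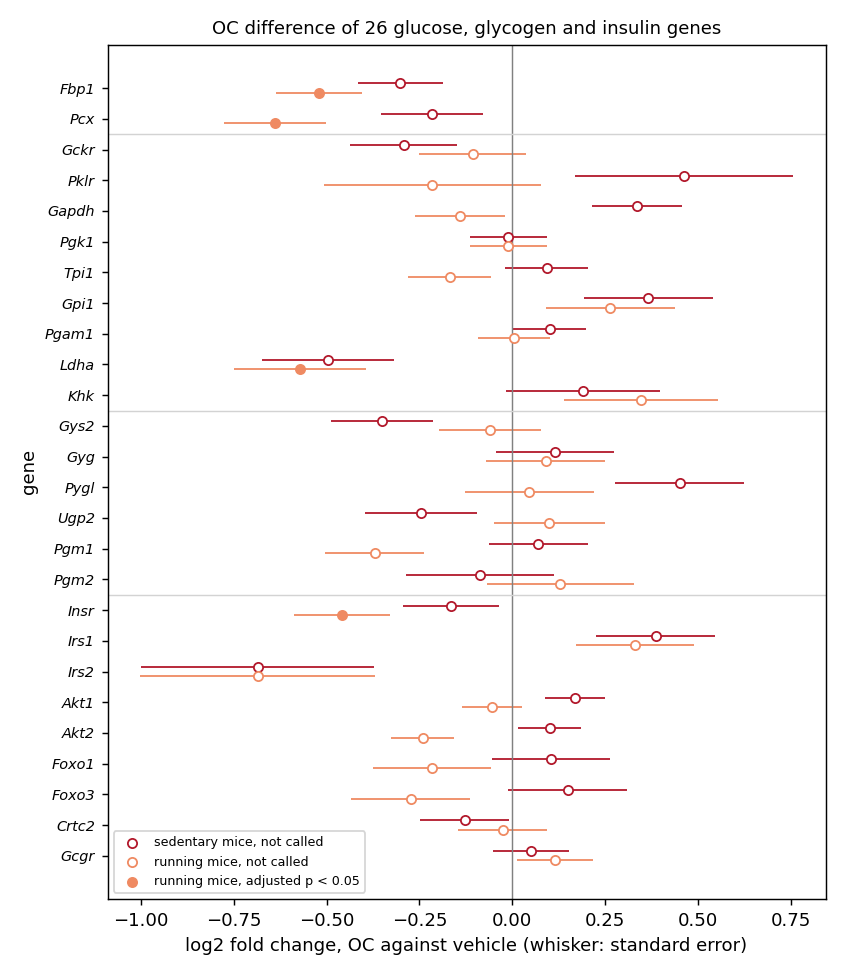
Log2 difference between OC and vehicle for each of the 26 genes in sedentary and in running mice, with bars of 1 standard error and filled points for genes called. Pcx, Fbp1, Insr and Ldha were called in running mice, no gene was called in sedentary mice, and Irs2 has the widest bars.

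For running, edgeR called none of the 26 genes on vehicle, on OC or averaged over diet, where 0% of all tested genes were called. At an unadjusted p under 0.05 there were 1 (Gys2), 3 (Gys2, Insr and Akt2) and 2 (Gys2 and Irs2) respectively, against 13.9%, 6.8% and 4.86% of all tested genes. DESeq2 called Gys2 lower on vehicle and on average and none of the 26 on OC, where it called 42, 2 and 1 of all genes on vehicle, on average and on OC. limma voom called 0 of the 26 in all 3.

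Between livers, the first principal component of the 26 genes' log2 values held 37.9% of their variance, with Irs2, Gys2, Ldha and Pcx weighted at one end and Pklr, Khk, Pygl and Gpi1 at the other. Vehicle livers scored from -1.60 to 0.12 and OC livers from -0.46 to 2.02, so the diets overlapped. Irs2 had the largest weight by far (-0.65), with Pklr next in size (0.32), so Irs2 counts most in the scores. How closely the scores follow its level was not tested.

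**Figure D5:**
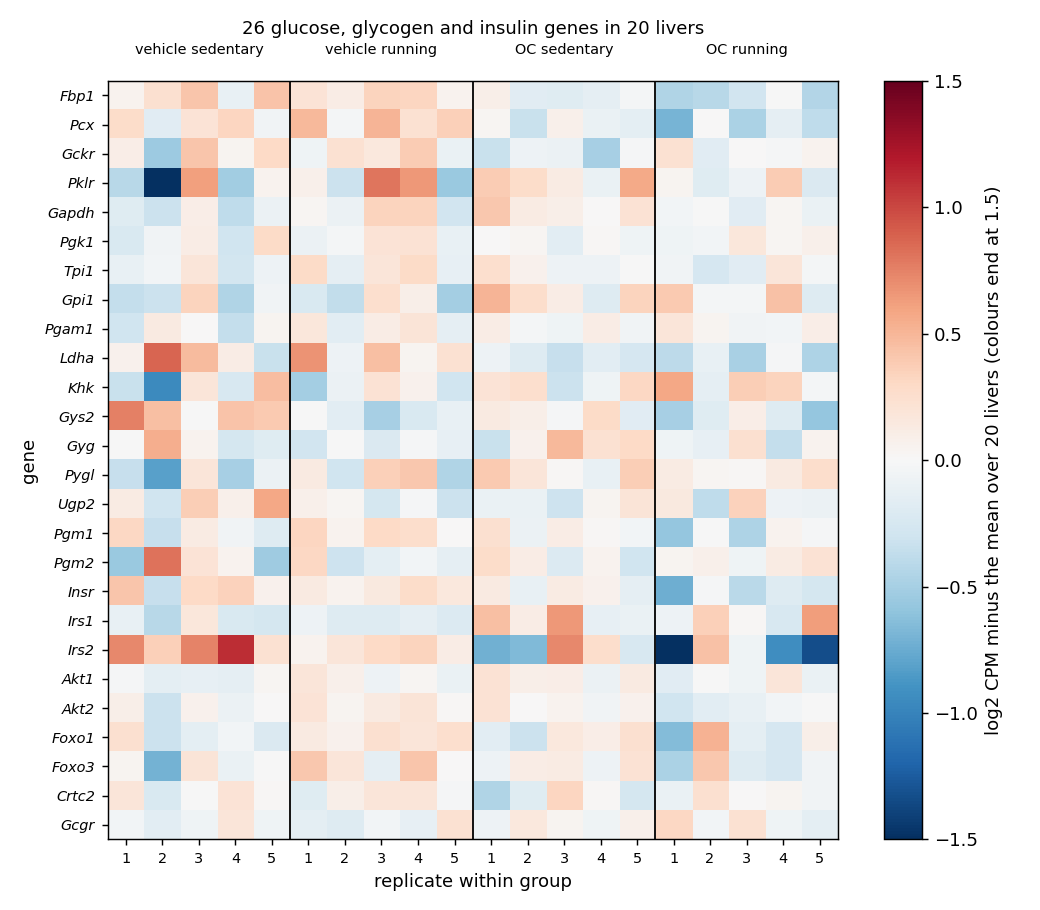
Log2 level of each of the 26 genes in each of the 20 livers, relative to the gene's mean over the 20 livers, with libraries ordered by group, red above and blue below the mean. Irs2 is low in 7 of the 10 OC livers, and OC.Sed replicates 3 and 4 and OC.VWR replicate 2 keep it within the vehicle range.

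A second list held 190 other genes of the same pathways, of which 107 had an intact line and 100 were tested. On OC, 10 were higher and 5 lower in sedentary mice, 4 higher and 8 lower in running mice, and 13 higher and 10 lower on average. With TMM the shares called, 15%, 12% and 23%, lie near the 16.3%, 13.2% and 22.9% of all tested genes. Library totals alone gave 25 and 2, 11 and 2, and 30 and 4. Among all tested genes library totals gave 1712 and 360, 1390 and 335, and 2559 and 599. None was called for running or for the interaction by edgeR. At an unadjusted p under 0.05 there were 21, 7, 5 and 20 of the 100, against 13.9%, 6.8%, 4.86% and 17.7% of all tested genes. These are for running on vehicle, on OC, on average and for the interaction, in that order. DESeq2 called 2 of the 100 lower in the interaction, beside 119 of all tested genes in either direction, and none of the 100 for running.

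Among 14 other glycogen genes, 5 were higher on average (Stbd1, Nhlrc1, Gsk3b, Ppp1cc and Phkb) and 1 lower (Ppp1cb), beside 11.9% higher and 11% lower among all tested genes. Stbd1, a glycogen-binding protein, rose in both activity groups, from 103 ± 11.1 CPM in Con.Sed to 185 ± 46.1 CPM in OC.Sed and from 82.7 ± 12.4 CPM in Con.VWR to 187 ± 25.7 CPM in OC.VWR (SD, n = 5). Its log2 differences were 0.85 (SE 0.15, adjusted p 0.000616) and 1.18 (SE 0.15, adjusted p 1.69e-05), and every OC library exceeded every vehicle library. Nhlrc1, the ubiquitin ligase malin, rose in sedentary mice (log2 difference 1.65, SE 0.30, adjusted p 0.000862) at a low level, from 0.662 ± 0.304 to 2.11 ± 0.433 CPM (SD, n = 5). In running mice Nhlrc1 was not called. Ppp1cc, a catalytic subunit of the phosphatase that activates glycogen synthase, rose in running mice (log2 difference 0.32, SE 0.09, adjusted p 0.0187). That call was lost without Con.VWR replicate 1 or OC.VWR replicate 3 or 4.

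The 8 other genes of pyruvate entry and transport held 3 lower and 0 higher calls on average, beside 11% lower and 11.9% higher among all tested genes. Mpc1, a subunit of the mitochondrial pyruvate carrier, fell from 369 ± 47.8 to 228 ± 21.4 CPM in sedentary mice (SD, n = 5; log2 difference -0.69, SE 0.11, adjusted p 0.000278). In running mice it averaged 331 ± 43.3 CPM on vehicle and 259 ± 31.0 CPM on OC (SD, n = 5; log2 difference -0.35, SE 0.11, adjusted p 0.0389). Dld, the dehydrogenase shared by pyruvate dehydrogenase and related complexes, fell from 172 ± 9.74 to 139 ± 4.51 CPM in sedentary mice (SD, n = 5; log2 difference -0.31, SE 0.08, adjusted p 0.0119), a call lost with library totals alone (adjusted p 0.0961). Mpc1 and Dld were called lower in running mice too, as was Dlat, a core subunit of pyruvate dehydrogenase.

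Of 10 other glycolysis and gluconeogenesis genes 3 were higher and 0 lower on average, beside 11.9% higher and 11% lower among all tested genes. Ldhd, the mitochondrial D-lactate dehydrogenase, rose from 127 ± 23.9 to 205 ± 17.2 CPM in sedentary mice (SD, n = 5; log2 difference 0.69, SE 0.12, adjusted p 0.000806). Averaged over activity its log2 difference was 0.57 (SE 0.09, adjusted p 7.31e-05). Hkdc1, a hexokinase scarce in adult liver, rose in running mice from 0.321 ± 0.151 to 1.47 ± 0.368 CPM (SD, n = 5; log2 difference 2.16, SE 0.45, adjusted p 0.00269). The third was Tigar, a bisphosphatase that lowers glycolytic flux.

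Of 36 other insulin signalling genes, 1 was higher on average (Sos1) and 4 lower (Enpp1, Foxo4, Tsc1 and Trib1). That is 13.9% called, against 22.9% of all tested genes. Averaged over activity Enpp1, which binds and inhibits the insulin receptor, had a log2 difference of -0.41 (SE 0.07, adjusted p 0.000364). In running mice Enpp1 fell from 62.3 ± 5.86 to 45.0 ± 3.81 CPM (SD, n = 5; log2 difference -0.47, SE 0.10, adjusted p 0.00468). Foxo4 fell from 39.5 ± 2.70 to 27.6 ± 3.59 CPM (SD, n = 5; log2 difference -0.52, SE 0.11, adjusted p 0.00391). Eif4ebp2, a repressor of cap-dependent translation, fell there too (log2 difference -0.43, SE 0.12, adjusted p 0.0215), a call lost with library totals alone and without Con.VWR replicate 3 or OC.VWR replicate 1 or 3. Of 14 other genes of glucagon and cyclic AMP signalling, 28.6% were called on average, against 22.9% of all tested genes. The calls were 3 higher (Crtc1, Creb3l3 and Adcy9) and 1 lower. The lower one was Crem, a cyclic AMP responsive modulator, with a log2 difference of -0.54 in sedentary mice (SE 0.13, adjusted p 0.00639). No gene of this list, Crem included, was called in running mice. The 18 other genes of fructose, pentose phosphate and hexosamine metabolism held 1 higher call on average (Mlx) and 1 lower (G6pdx), the first enzyme of the pentose phosphate pathway. Their share called was 11.1%, against 22.9% of all tested genes.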

How the data were processed

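RNA from the livers of 20 mice, 5 per group, was sequenced as stranded paired-end libraries, per the labels' protocols. The submitters' processing notes name STAR, mm10, R 4.05 and limma. How reads were counted, with which annotation and strand setting, is not given in the sources used here. Values in the deposited table were treated as unscaled estimated counts, since 2 genes held values that were not whole. All values used were whole, so rounding changed none, and the planned design had assumed counts. Lines displaced to the right, or in doubt, were left out: 11511 of 35504 genes (32.4%). Positions are from GENCODE vM21 (GRCm38), matched by gene ID. Replicate numbers follow accession order, and the labels name individual mice.

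edgeR 4.0.16 in R 4.3.3 kept 10207 genes by filterByExpr (minimum count 10), holding 99.95% of counts, scaled them by TMM (factors 0.904 to 1.11) and fitted 1 mean per group to all 20 libraries. It gave 7 contrasts: OC against vehicle and running against sedentary, each within the other factor's levels and averaged over them, and the interaction. Adjusted p-values are Benjamini-Hochberg values over all 10207 genes, and unless another tool is named they are from edgeR. The fit was tested on simulated data. Alternatives were DESeq2 1.42.0, limma voom (limma 3.58.1), library totals, RLE factors, no filter, a mean of at least 1 CPM, a fold of at least 1.5, fits of the 2 groups compared, and each library left out. Leaving out Con.Sed replicates 2 and 5 together was added after seeing the data. Ratios used log2 counts with 0.5 added and exact permutation tests (SciPy 1.17.1). The precision is that of 5 mice per group, and counting adds most error for low genes such as Nhlrc1 and Hkdc1.

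Every member was described, and those called in any contrast in full. From the other pathway genes, up to 3 called genes per direction and contrast were named by smallest adjusted p; further names of called genes and Gys2 in full were chosen after their values were seen. The members and all lists were chosen with earlier results of these data known. Promoter windows of 250 bases are from RefSeq, and motifs were searched on both strands.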

Additional observations from a re-analysis of the deposited data

Results flagged for a closer look

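Of 148 groups of 5 libraries checked, for the 26 genes and 11 named pathway genes, 2 held a library far from the other 4, where chance flags about 1 in 20 groups. None was a group of the 26 genes. Stbd1 stood at 122.761 CPM in Con.Sed replicate 4 against 96.598 to 99.7114 CPM in the other 4, so that the gap made up 0.881 of the range, above Dixon's critical value of 0.71. Crem stood at 34.2569 CPM in Con.VWR replicate 2 against 23.7498 to 26.766 CPM in the other 4, with a gap of 0.713 of the range. The calls of Stbd1 and Crem on OC in sedentary mice were kept in 28 alternatives, those without these libraries included, but Crem, at 1.46-fold, does not reach the further alternative of a fold of at least 1.5. The flagged Crem library is in neither sedentary group, so leaving it out bears on that call only through the shared fit.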

How the results depend on the processing

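No result changed direction past the threshold under any alternative. In sedentary mice the number of the 26 genes called on OC was 0 by edgeR, 3 by DESeq2 and 5 with library totals alone, and 0 to 4 with single libraries left out. Besides Con.Sed replicate 3 (4 calls), single calls arose without Con.Sed replicate 2 (Gckr), 4 (Fbp1) or 5 (Ldha), Con.VWR replicate 5 (Gapdh) or OC.Sed replicate 3 (Irs2). In running mice it was 4, with 2 under library totals, 1 at a fold of at least 1.5 (Pcx), and 2 to 6 with single libraries left out. Averaged over activity it was 6, with 10 under library totals, 1 at a fold of at least 1.5 (Irs2), and 4 to 7 with single libraries left out. Running on vehicle and running averaged over diet had 0 calls and 1 each by DESeq2 (Gys2). For the 3 comparisons of running and the interaction, leaving out single libraries gave 0 to 0. The ratios also gave 0 to 0, which says nothing of stability, since the smallest p that 5 against 5 libraries allow (0.00794) does not pass over 20 comparisons unless several separate completely. Without both Con.Sed replicates 2 and 5, Irs1 lost its averaged call. The cause of these changes was not tested, apart from library totals, which shift all genes upward on OC. No paired analysis was possible because the labels give no replicate numbers shared between groups. With 5 mice per group, differences in Irs2 and Pklr, whose mean coefficients of variation were 34.6% and 31.6%, were the least well measured.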

Other observations

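The 3 OC livers in which Irs2 lay within the vehicle range also had the lowest levels of Srebf1, the lipogenic transcription factor that insulin induces, among the OC livers of their activity group. Srebf1 stood at 289 CPM in OC.Sed replicate 3 and 217 CPM in OC.Sed replicate 4, where Irs2 was at 72.0 and 52.5 CPM, and at 754 to 1079 CPM in the other 3 OC.Sed livers, where Irs2 was at 26.5 to 37.2 CPM. In OC.VWR replicate 2 Srebf1 stood at 226 CPM with Irs2 at 59.5 CPM, and in the other 4 OC.VWR livers at 409 to 1004 CPM with Irs2 at 14.6 to 41.7 CPM. Srebf1 averaged 581 ± 165 CPM in Con.Sed and 801 ± 199.8 CPM in Con.VWR (SD, n = 5). This pairing was noticed after the values were seen and was not tested.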
